A study of Homo sapiens with 5 samples.

Results

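The genes described here are 10 short non-coding RNA genes that RNA polymerase III (Pol III) transcribes, of 26485 genes in the deposited counts. There are 3 SNAR genes (SNAR-E, SNAR-H and SNAR-G1) and 7 genes for housekeeping RNAs (RN7SK, RN7SL1, RN7SL2, RMRP, RPPH1, VTRNA1-1 and RNY1). They were listed by name with the counts of this same comparison known, the large difference of the SNAR genes among them. Their levels and differences are therefore given as a description, with no test.

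The counts come from 5 libraries of the human colorectal cancer line SW480, an established cell line. The 3 AKAP12 knockdown libraries are from cells with a guide RNA against AKAP12, and the 2 control libraries from cells with control guides. All cells of both groups carried dCas9-KRAB (CRISPR interference), in which a Cas9 that cannot cut brings a repressor domain to the place a guide names. RNA was extracted 48 hours after seeding, and the libraries were made with a QuantSeq FWD kit, whose primer anneals to poly(A) so that only the 3′ part of an RNA is read. Titles of the samples use the prefix sh where the treatment text speaks of guides, and the treatment text was followed. Neither the number of guides or clones nor separate cultures per replicate are given in the sources used here, so any spread between libraries may be technical.

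Pol III makes short, structured RNAs that are not translated, and it ends transcription at a run of T in the coding strand. Some of its genes are read from promoter boxes inside the transcribed part, others from elements upstream that the SNAPc complex and BRF2 bind. Its products have general duties in every cell: 7SK RNA holds the elongation factor P-TEFb inactive, 7SL RNA is the backbone of the signal recognition particle (SRP), RMRP and RPPH1 are the RNAs of RNase MRP and RNase P, and vault and Y RNAs sit in the vault and Ro particles. SNAR RNAs are a primate family of short transcripts, many of them encoded in clusters on chromosome 19. Few Pol III products carry a poly(A) tail, so a poly(A)-primed library samples them poorly. Levels per library below are CPM, the count scaled to that library's total with no further factor.

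The sequences of 7 of the 10 genes were found in GENCODE release 29 (GRCh38), and 2 are shown because each carries a feature of Pol III genes. In VTRNA1-1 the capitals mark a match to the B box motif of internal Pol III promoters, GTTCGANNC, and in RNY1 the run of T at the end. Both are written 5′ to 3′ on the transcript strand.
VTRNA1-1: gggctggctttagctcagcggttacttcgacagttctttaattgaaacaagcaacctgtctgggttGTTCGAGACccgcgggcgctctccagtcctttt
RNY1: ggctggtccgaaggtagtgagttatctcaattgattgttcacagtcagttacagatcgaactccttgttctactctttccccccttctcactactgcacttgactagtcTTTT

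The B box match of VTRNA1-1 lies at bases 67 to 75 of 99. On either strand, the motif occurs in the first 99 bases of 0.361% of the 203760 GENCODE transcripts at least that long, and none of the other 6 sequences holds it. VTRNA1-1 and RNY1 both end in 4 T, while the remaining annotated sequences end in 0 to 2. How often other transcripts end so was not counted. The longest run of A in the 7 sequences is 2 to 4 bases, so none of the 7 holds a long internal A tract. Their GC content lies between 44.2% (RNY1) and 64.6% (RPPH1). The sequences not found are those of the 3 SNAR genes, so runs of A in SNAR-E, SNAR-H and SNAR-G1 were not examined.

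Several facts of the libraries bear on what follows. Total counts were 9311026, 6890868 and 7763190 in knockdown libraries 1 to 3, against 4935096 and 8670141 in controls 1 and 2. A count of 0 allows up to 0.322 to 0.435 CPM in the knockdown libraries and up to 0.608 and 0.346 in the controls, taking 3 counts as the limit. AKAP12 itself was at 1216, 1152 and 1056 CPM in the knockdown, against 2374 and 1559 in the controls (log2 fold change -1.04, SE 0.31, edgeR adjusted p = 0.0513, and -0.52 without control 1 or -1.42 without control 2). AKAP12 passed the threshold of 0.05 by DESeq2 (adjusted p = 0.0110) and limma-voom (adjusted p = 0.0453), and by edgeR with unfiltered genes (adjusted p = 0.0310), with a stricter filter (0.0481), without control 1 (0.00397) and without control 2 (1.09e-08). It did not pass with other scaling, a replicate block or any knockdown library left out (edgeR adjusted p from 0.0505 to 0.298). TERT, the telomerase catalytic subunit gene, took 0.0451%, 0.249% and 0.161% of knockdown counts, against 7.43% and 3.54% of control counts. Both controls thus lay far above every knockdown library in TERT. Control 1 stands apart in its short genes. The 2431 genes with an exon length under 350 nucleotides took 0.972%, 0.983% and 0.670% of knockdown counts, against 8.79% in control 1 and 1.94% in control 2. Summed epithelial markers were at 1472 to 1742 CPM in the knockdown, against 886 in control 1 and 1632 in control 2, and 8 of the 10 had at least 1 CPM in every library, with CDX1 at 0. Blood markers summed to 92.0 to 118.9 in the knockdown, against 60.2 and 112.6 in the controls, with 5 of 8 at or above 1 CPM in every library, and stromal markers to 375.9 to 457.0, against 239.1 and 385.0, with 6 of 7. The part of these differences in the results was not tested, so the differences of the 10 genes are given below also without control 1.

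As a group, the 3 SNAR genes took a smaller share of counts in every knockdown library than in either control. Their share was 0.146% (exact binomial 95% interval 0.143 to 0.148), 0.183% (0.180 to 0.187) and 0.111% (0.109 to 0.114) of counts in the knockdown libraries. It was 6.11% (6.09 to 6.13) in control 1 and 0.383% (0.378 to 0.387) in control 2. Control 1 held 41.6 times the knockdown mean and control 2 held 2.61 times, so the controls differed from each other by more than control 2 differed from the knockdown. These intervals cover counting error only.

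The 7 housekeeping RNAs together took far smaller shares, again with all knockdown libraries below both controls. Their share was 0.00953% (0.00891 to 0.0102), 0.00942% (0.00871 to 0.0102) and 0.00540% (0.00489 to 0.00594) in the knockdown libraries, against 0.0213% (0.0200 to 0.0226) in control 1 and 0.0128% (0.0121 to 0.0136) in control 2. Control 1 held 2.62 times the knockdown mean and control 2 held 1.58 times. All 10 genes together took 0.155%, 0.193% and 0.117% of knockdown counts, against 6.13% and 0.395% of control counts.

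**Figure D1:**
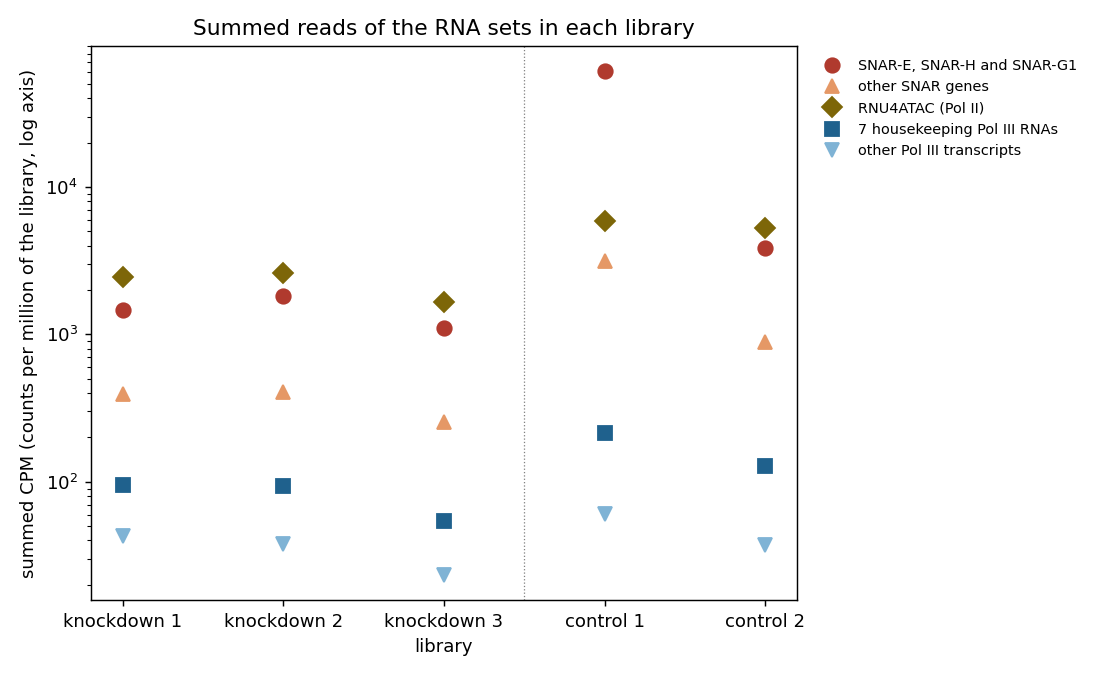
Summed CPM (log axis) of the 3 SNAR genes, the other SNAR genes, the minor spliceosomal RNA gene RNU4ATAC, the 7 housekeeping Pol III RNAs and other Pol III transcripts, in each of the 3 knockdown and 2 control libraries. The 3 SNAR genes reach 61068 in control 1, against 1112 to 1834 in the knockdown libraries and 3826 in control 2, while the housekeeping RNAs lie between 54.0 and 213.

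SNAR-E (chromosome 19, 46830585 to 46830704, minus strand, hg38) held 91.8% to 97.2% of the reads of the 3 SNAR genes in each library. It was at 1342, 1709 and 1021 CPM in the knockdown libraries, against 59353 in control 1 and 3537 in control 2. All knockdown libraries lay below both controls, and control 1 held 16.8 times the level of control 2. The fitted log2 fold change, knockdown over control on TMM-scaled counts, was -4.88 (SE 1.08), 29.5-fold lower. It was -1.46 without control 1 and -5.81 without control 2.

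SNAR-H (chromosome 2, 77954907 to 77955026, minus strand) lies within the span of the gene LOC101927967. It was at 10.2, 17.8 and 7.73 CPM in the knockdown, against 366.6 and 25.5 in the controls. The groups did not overlap, and control 1 held 14.4 times the level of control 2. Its log2 fold change was -4.38 (SE 1.03), with -1.19 without control 1 and -5.33 without control 2.

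SNAR-G1 (chromosome 19, 49037020 to 49037147, plus strand) was at 105.8, 107.5 and 83.5 CPM in the knockdown, against 1349 and 263.9 in the controls. It too was lower in all knockdown libraries, and its controls differed by 5.11 times. The log2 fold change was -3.34 (SE 0.66), with -1.49 without control 1 and -4.13 without control 2. SNAR genes are near copies of each other, and the headers show no option to count reads that map to several places, so the split of reads among them is uncertain.

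The groups did not overlap, knockdown below control, in 3 of 3 SNAR genes and 5 of 7 housekeeping genes, against 22.4% of tested genes. Among the 210 tested genes under 350 nucleotides, these 10 included, the same held for 86. The counts of the 10 genes describe them by the same contrast for which they were listed. All 10 genes passed the filter on low counts. Genes other than these 10 were called by edgeR at a Benjamini-Hochberg adjusted p under 0.05 over 14536 tested genes. Counts of calls over all tested genes or all short genes include these 10.

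**Figure D2:**
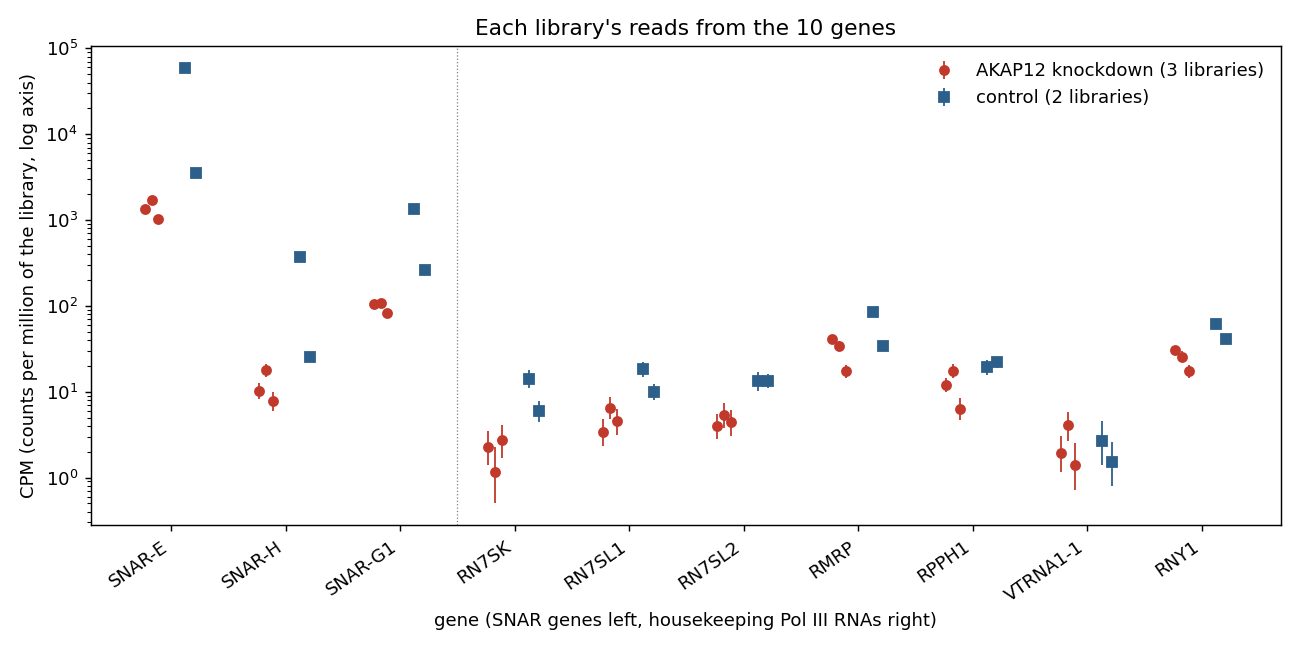
CPM (log axis) of each of the 10 genes, with one point per library and exact 95% counting intervals as bars. The 3 knockdown libraries lie below both controls for all but RMRP and VTRNA1-1, and control 1 stands furthest from the rest for the SNAR genes (59353 for SNAR-E).

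RN7SK encodes 7SK RNA, which with HEXIM and LARP7 proteins sequesters P-TEFb. The gene (chromosome 6, 52995620 to 52995951, plus strand) was sparsely read, with 21, 8 and 21 counts in the knockdown and 70 and 51 in the controls. This is 2.26, 1.16 and 2.71 CPM in the knockdown, against 14.2 and 5.88 in the controls. The groups did not overlap, but the count of 8 has an exact interval of 0.501 to 2.29 CPM. RN7SK had a log2 fold change of -2.52 (SE 0.57), with -1.57 without control 1 and -3.13 without control 2.

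RN7SL1 and RN7SL2 encode the SRP RNA, which holds together the particle that brings nascent secretory proteins to the endoplasmic reticulum. They are near copies of each other, so the split of reads between them is uncertain. RN7SL1 (chromosome 14, 49586580 to 49586878, plus strand) was at 3.44, 6.53 and 4.51 CPM in the knockdown, against 18.2 and 9.92 in the controls. RN7SL2 (chromosome 14, 49862551 to 49862849, minus strand) was at 3.97, 5.37 and 4.38 in the knockdown, against 13.2 and 13.4 in the controls. Neither pair of groups overlapped, and the controls of RN7SL2 were nearly equal, at a ratio of 0.984. The log2 fold change was -1.80 (SE 0.44) for RN7SL1, with -1.13 and -2.30 without controls 1 and 2, and -1.76 (SE 0.29) for RN7SL2, with -1.63 and -1.89. RN7SL2 is thus the gene of the SRP pair whose value moved least with the choice of control.

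RMRP is the RNA of RNase MRP, an endonuclease that acts on precursor ribosomal RNA. The gene (chromosome 9, 35657751 to 35658018, minus strand) was at 41.0, 33.96 and 17.4 CPM in the knockdown, against 84.7 and 34.3 in the controls. The groups overlapped, since knockdown 1 lay above control 2. The log2 fold change of -1.22 (SE 0.52) was -0.22 without control 1 and -1.81 without control 2.

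RPPH1 is the RNA of RNase P, which trims the 5′ ends of precursor transfer RNAs. The gene (chromosome 14, 20343071 to 20343411, minus strand) was at 11.9, 17.4 and 6.31 CPM in the knockdown, against 19.2 and 22.1 in the controls. All knockdown libraries lay below both controls, by a narrow gap for knockdown 2. RPPH1 had a log2 fold change of -1.02 (SE 0.40), with -0.98 without control 1 and -1.07 without control 2.

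RNY1 encodes the Y1 RNA, which binds the Ro60 protein. The gene (chromosome 7, 148987136 to 148987248, minus strand) was at 30.7, 25.7 and 17.3 CPM in the knockdown, against 60.8 and 41.3 in the controls, with no overlap. RNY1 had a log2 fold change of -1.30 (SE 0.34), with -0.82 without control 1 and -1.66 without control 2.

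VTRNA1-1 encodes a vault RNA, a component of the vault particle. The gene (chromosome 5, 140711276 to 140711373, plus strand) was at 1.93, 4.06 and 1.42 CPM in the knockdown, against 2.63 and 1.499 in the controls, from 11 to 28 counts per library. The groups overlapped. Its log2 fold change was 0.04 (SE 0.63), with 0.62 without control 1 and -0.48 without control 2, so its direction depends on the library left out. It was also -0.03 by DESeq2 and -0.00 with RLE scaling.

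Per kilobase of exon, SNAR-E led the order in both groups, at means of 11311 RPKM (CPM per kilobase) in the knockdown and 262038 in the controls. SNAR-G1 came next (773 in the knockdown, 6299 in the controls). In the knockdown RNY1 (217), RMRP (115) and SNAR-H (99.4) followed, while in the controls SNAR-H (1634) lay above RNY1 (452) and RMRP (222). That order in the controls is the one of control 1, with SNAR-H at 3055 and RNY1 at 538, whereas in control 2 SNAR-H (212) lay below RNY1 (365) and above RMRP (128). RPPH1, VTRNA1-1, RN7SL1, RN7SL2 and RN7SK lay lowest in both groups, at 6.15 to 34.8 in the knockdown and 21.1 to 60.7 in the controls. The neighbours RN7SL1 and RN7SL2 (16.1 and 15.3 in the knockdown, 47.1 and 44.4 in the controls) did not differ beyond the spread of their libraries. Since the libraries read only 3′ parts, this order is a length-scaled count and not a molar amount.

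How closely the SNAR genes move with the other Pol III transcripts depends on the control used. With both controls, the SNAR genes had log2 fold changes of -3.34 to -4.88 and the housekeeping genes 0.04 to -2.52, so the sets did not overlap. Without control 1, the SNAR genes were at -1.19 to -1.49. The values of RN7SK (-1.57), RN7SL1 (-1.13) and RN7SL2 (-1.63) spanned a range that holds these, from only 8 to 116 counts per library. The other housekeeping genes lay above all of these values, at -0.98 (RPPH1), -0.82 (RNY1), -0.22 (RMRP) and 0.62 (VTRNA1-1). The same order shows in levels. Control 2 over the knockdown mean was 2.61 for SNAR-E, 2.14 for SNAR-H and 2.67 for SNAR-G1, close to 2.88 for RN7SK, 2.06 for RN7SL1 and 2.92 for RN7SL2, and above 1.11 for RMRP, 1.86 for RPPH1, 0.607 for VTRNA1-1 and 1.68 for RNY1. Control 1 over the knockdown mean was 43.7, 30.7 and 13.6 for the same 3 SNAR genes, and 1.07 (VTRNA1-1) to 6.95 (RN7SK) for the housekeeping genes.

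**Figure D3:**
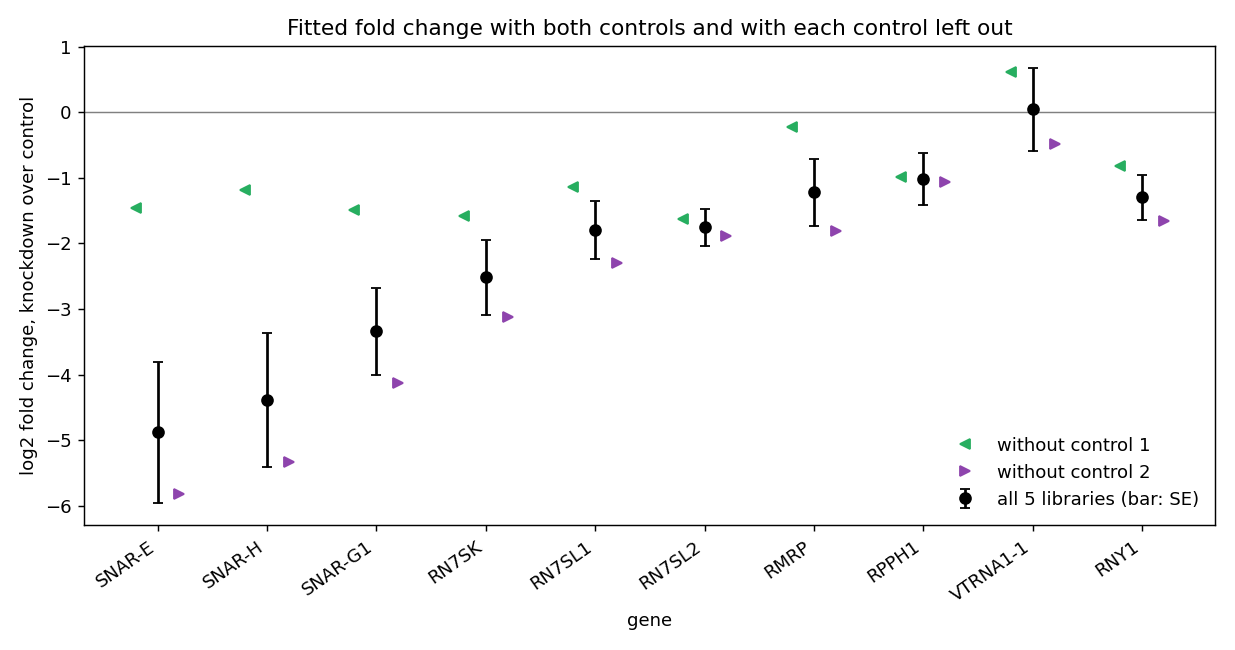
Log2 fold change, knockdown over control, of each of the 10 genes from the fit to all 5 libraries (points with SE bars), and from the fits without control 1 and without control 2 (triangles). SNAR-E lies at -4.88 with all libraries and at -1.46 without control 1, and VTRNA1-1 crosses 0.

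The ratio of summed SNAR to summed housekeeping counts within a library does not depend on its depth or scaling. It was 15.3, 19.5 and 20.6 in the knockdown libraries, against 286.8 in control 1 and 29.8 in control 2. All knockdown libraries lay below both controls. The log2 difference of the ratio was -2.34, with an SD of 1.35 between libraries, and -0.70 without control 1 or -3.97 without control 2. With SNAR-E and RMRP, the largest gene of each set, left out, it was -1.52.

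The summed SNAR level differed by -3.63 on the log2 scale (SD 1.77 between libraries), with -1.49 without control 1 and -5.77 without control 2. The summed housekeeping level differed by -1.29 (SD 0.56), with -0.78 and -1.80. The highest knockdown library was 1.65 times the lowest for the SNAR genes and 1.77 times for the housekeeping genes, for which that spread exceeded the gap between the controls, and knockdown 3 was the lowest in both. Control 1 over control 2 was 16.0 for the SNAR genes and 1.66 for the housekeeping genes.

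Other SNAR genes, taken from a family list, were lower in the knockdown too. The files hold 25 more SNAR genes, and several have identical intervals, so that they form 11 distinct sets of intervals. Of the genes, 8 had no counted read in any library. With no option set to count reads that map to several places, this does not show that they are silent. The 4 with enough reads to test all fell in the knockdown (edgeR), against 11.4% of all tested genes and 54 of the 210 tested short genes. They share sequence with SNAR-E and are not independent of it, and the family was taken up with the SNAR difference known. Their calls are thus a description and no further support. With a replicate block none of the 4 passed (edgeR adjusted p from 0.056 to 0.172). SNAR-I (chromosome 3, 190877930 to 190878050) was at 178.7, 178.2 and 113.5 CPM in the knockdown, against 1830 and 425.6 in the controls (log2 fold change -3.16, SE 0.63, edgeR adjusted p = 0.0223). Without control 1 it was at -1.51 and without control 2 at -3.91. SNAR-G2 (chromosome 19) was at 141.6, 131.5 and 76.0 in the knockdown, against 1016 and 337.5 in the controls (log2 fold change -2.83, SE 0.54, edgeR adjusted p = 0.0213), with -1.61 without control 1. SNAR-D was at 6.23, 6.24 and 3.22 in the knockdown, against 138.6 and 14.1 in the controls (log2 fold change -4.18, SE 0.92, edgeR adjusted p = 0.0267), with -1.50 without control 1 and a limma-voom adjusted p of 0.0846. SNAR-C3 differed least, with 66.6, 90.7 and 62.6 in the knockdown, against 182.0 and 116.0 in the controls (log2 fold change -1.28, SE 0.31, edgeR adjusted p = 0.0327), and -0.74 without control 1.

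SNAR-E took 72.5%, 76.3% and 74.7% of all counted SNAR reads in the knockdown libraries, against 92.4% in control 1 and 74.9% in control 2. The make-up of these counted reads in control 2 thus lay within the range of the knockdown libraries. SNAR genes with several annotated copies are hardly counted, so this make-up is not that of the whole family. The SNAR genes other than the 3 listed ones summed to 393, 407 and 255 CPM in the knockdown, against 3170 in control 1 and 894 in control 2. Their control 1 level was 9.01 times the knockdown mean and their control 2 level 2.54 times, so the excess in control 1 was smaller than for SNAR-E, and that in control 2 was close to it.

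Further Pol III transcripts were covered thinly. A list held 31 genes, of which 30 are in the files and 16 had no counted read. Those 16 have several annotated intervals each, so this does not show absence. Of the rest, 6 distinct ones could be tested. None passed the edgeR threshold, 2 had an unadjusted p under 0.05, and DESeq2 called 1 and limma-voom 0 of them. Their summed level was 43.1, 37.7 and 23.3 CPM in the knockdown, against 60.6 and 37.5 in the controls, and the groups overlapped. The U6 spliceosomal RNA genes, which share their intervals and count as 1 measurement, were at 5.26, 5.37 and 3.99 in the knockdown, against 20.1 and 5.65 in the controls (log2 fold change -1.65, SE 0.58, edgeR adjusted p = 0.0807). They are the genes DESeq2 called (adjusted p = 0.0260), against an adjusted p of 0.209 by limma-voom. The vault RNA gene VTRNA1-3 was at -1.44 (edgeR adjusted p = 0.122) and the Y RNA gene RNY5 at -0.91 (0.285). RNU6ATAC, RNA of the minor spliceosome, was at -0.56 (0.405), VTRNA2-1 at -0.18 (0.807) and RNY4 at 0.25 (0.671). The 6 had a median log2 fold change of -0.73, against 0.04 for all tested genes.

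Patterns over the 5 libraries were compared with that of the summed SNAR counts by the root mean square distance of centred log2 values. Candidates had a mean log2 level of at least 4, and for both sums all SNAR genes and the 10 genes were left out. The search thus could not place a SNAR gene near the housekeeping sum, or a housekeeping gene near the SNAR sum. Most like the SNAR sum were SNORD57 (0.22), HIST1H4H (0.43), SNORD89 (0.50), HIST1H2AJ (0.53), SNORD50A (0.59) and METRN (0.64). Of these, 3 are small nucleolar RNA genes and 2 replication-dependent histone genes. SNORD57 was at 10.95, 11.3 and 9.15 CPM in the knockdown, against 371.4 and 34.02 in the controls. For the summed housekeeping counts the most alike genes were SNORD118 (0.10), BASP1 (0.11), TMEM186 (0.14), VPS37B (0.14), LMOD1 (0.15) and VPS8 (0.16). SNORD118, the U8 small nucleolar RNA, was at 33.0, 29.02 and 18.8 in the knockdown, against 81.1 and 41.5 in the controls, and its exon overlaps TMEM107. With 5 libraries and so large a gap to control 1, many genes can come close to such a pattern.

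Short genes of any kind give the background for these values. The 210 tested genes under 350 nucleotides, the 10 described here among them, had a median log2 fold change of -0.91. With the 10 counted in, 54 of the 210 fell and 9 rose (edgeR), against 11.4% of all tested genes lower and 11.2% higher. The groups did not overlap, knockdown below control, in 86 of the 210, against 22.4% of all tested genes. The median of the 10 genes described here was -1.78. It was -1.16 without control 1, for which no median of the 210 was taken.

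The proteins that make, bind or process these RNAs did not move one way. Of 63 tested genes, 7 rose and 6 fell (edgeR), against 11.2% of all tested genes higher, 11.4% lower and 22.6% in either direction, and their median log2 fold change was 0.0022. All knockdown libraries lay above both controls in 24 of the 63, against 37.9% of all tested genes. Poly(A)-primed reads of these messenger RNAs say nothing of protein levels.

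Among 12 Pol III subunit genes, 2 rose and 1 fell (edgeR), against 22.6% of all tested genes in either direction. POLR1C and POLR1D, subunits that Pol III shares with RNA polymerase I, had log2 fold changes of 2.04 (SE 0.58, edgeR adjusted p = 0.0469) and 1.43 (SE 0.22, edgeR adjusted p = 0.0163). POLR1C was at 37.6, 37.0 and 37.5 CPM in the knockdown, against 2.03 and 13.8 in the controls, and POLR1D at 129.4, 127.8 and 140.0, against 32.2 and 54.0. POLR1C was at 1.36 without control 1 and at 3.83 without control 2. POLR3D fell by 1.15 (SE 0.22, edgeR adjusted p = 0.0209), at 42.6, 43.5 and 36.8 in the knockdown, against 82.5 and 73.1 in the controls.

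Among 20 factor genes, 2 rose and 2 fell (edgeR), against 22.6% of all tested genes in either direction. BRF1 and BRF2 encode alternative subunits of the initiation factor TFIIIB, BRF1 for promoters with internal boxes and BRF2 for those with upstream elements. BRF2 was at 8.48, 10.6 and 15.1 CPM in the knockdown, against 0.811 and 2.54 in the controls (log2 fold change 2.49, SE 0.50, edgeR adjusted p = 0.0222), and its exons overlap ADGRA2. BRF1 was at 25.6, 31.3 and 17.4 in the knockdown, against 128.5 and 47.3 in the controls (log2 fold change -2.11, SE 0.49, edgeR adjusted p = 0.0298, and -1.01 without control 1), and its exons overlap BTBD6 and PACS2. GTF3C2, a subunit of TFIIIC, was at 1.36 (edgeR adjusted p = 0.0228, overlapping GTF3C2-AS1), and ZNF143, an activator of promoters with upstream elements, at -0.75 (edgeR adjusted p = 0.0473). The ZNF143 call was lost by limma-voom (adjusted p = 0.0540), with library size only (edgeR adjusted p = 0.101) and with unfiltered genes (edgeR adjusted p = 0.0741).

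Among the proteins bound to the finished RNAs, the SRP list held the largest rise. SRP9, which with SRP14 forms the SRP subunit that pauses elongation, was at 39.8, 39.0 and 49.6 CPM in the knockdown, against 1.42 and 5.07 in the controls. Its log2 fold change was 3.47 (SE 0.43, edgeR adjusted p = 0.0131), or 3.00 without control 1. Its partner SRP14 was at 675.5, 610.2 and 539.7 in the knockdown, against 216.6 and 656.3 in the controls (log2 fold change 0.33, edgeR adjusted p = 0.552). SRPRB, a subunit of the SRP receptor, was at 1.005 (edgeR adjusted p = 0.0499, and 0.64 without control 1 or 1.53 without control 2). Of the 8 tested SRP genes, only SRP9 and SRPRB passed, against 22.6% of all tested genes in either direction.

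None of the 7 genes for 7SK partner proteins passed (edgeR), against 22.6% of all tested genes. Their edgeR adjusted p values ran from 0.0563 (HEXIM1) to 0.805 (LARP7). Of these, 4 had an unadjusted p under 0.05, and DESeq2 called 3 (HEXIM1, CCNT1 and CCNT2) and limma-voom 0. Among 11 RNase P and MRP protein genes, RPP40 rose by 0.80 (SE 0.21, edgeR adjusted p = 0.0387), and its exons overlap LOC100129461. In the Y and vault list 3 of 5 fell, against 11.4% of all tested genes. The major vault protein gene MVP was at 4.51, 5.51 and 6.57 CPM in the knockdown, against 39.1 and 13.7 in the controls (log2 fold change -2.52, SE 0.51, edgeR adjusted p = 0.0232, and -1.39 without control 1), and its exons overlap PAGR1. The vault enzyme gene PARP4 was at -1.14 (edgeR adjusted p = 0.0419, and -0.52 without control 1), and PUF60, whose product also binds Ro particles, at -1.53 (edgeR adjusted p = 0.0208, and -1.02 without control 1). The calls of PARP4, SRPRB and POLR1C were lost on scaling by library size only, with edgeR adjusted p values from 0.0593 to 0.0657, and limma-voom gave PARP4 an adjusted p of 0.0566.

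**Figure D4:**
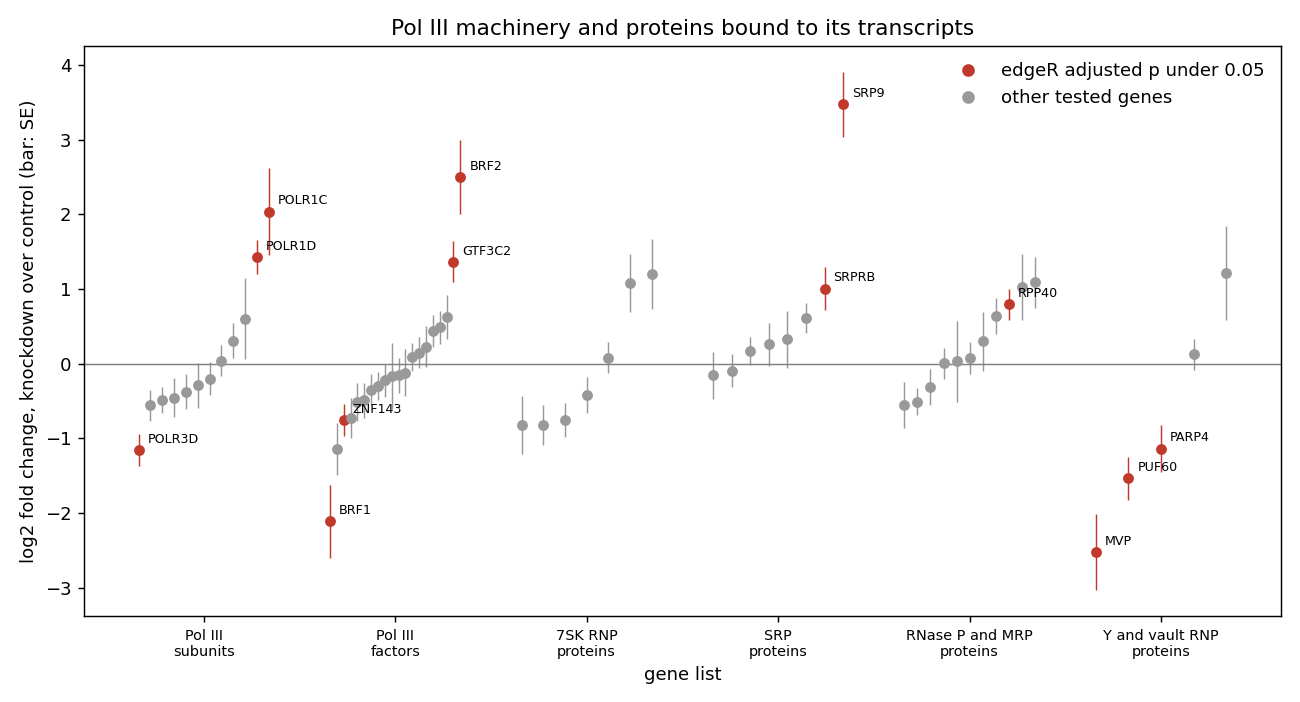
Log2 fold change, knockdown over control (points, with SE bars), of 63 tested genes for Pol III subunits, its factors and proteins bound to its transcripts, grouped by list, with those past the edgeR threshold in red and named. SRP9 at 3.47 and BRF2 at 2.49 are the highest of these, and MVP at -2.52 and BRF1 at -2.11 the lowest.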

How the data were processed

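Gene counts of 5 libraries (3 AKAP12 knockdown, 2 control) were analysed as deposited. Per the file headers, these counts were made with featureCounts 1.6.2 on hg38 exons, and a read over several genes was counted in each, with no option set for multi-mapping reads or strand. STAR 2.7 and DESeq2 1.22 are named in the submitters' processing notes. How reads were trimmed is not given in the sources used here. The authors' deposited table gives log2 fold changes with standard errors, a test statistic (a score), p-values and a mean signal per gene. Its direction is not stated. Across 14536 genes its values correlate with the fitted ones (Pearson's r 0.9994), and for the 10 genes they differ by at most 0.0616.

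Counts were filtered with filterByExpr (minimum count 10, 14536 genes left), scaled by TMM and compared, knockdown over control, with edgeR 4.0.16 (R 4.3.3, quasi-likelihood, two-sided, Benjamini-Hochberg, threshold 0.05). Counts simulated from the fit's own means and dispersions were used only to check that median fitted fold changes lay near those set. They do not check the adjusted p values or the effect of a deviating control. SE is the absolute log2 fold change over the square root of F. TMM factors were 1.05, 1.09 and 1.05 in the knockdown, against 0.829 and 1.01 in the controls, so fitted values set control 1 higher than CPM do. Intervals are exact binomial (Clopper-Pearson) at 95%.

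The genes and lists were chosen with earlier results of these data known. Named beside the 10 genes were AKAP12, listed genes past the threshold (up to 8 partner genes per direction) and the 6 genes most like each sum. SRP14, LARP7, HEXIM1, CCNT1, CCNT2 and the untested or uncalled Pol III and small nuclear RNAs given with values were named with their values in view. The alternatives tried were limma-voom (limma 3.58.1), DESeq2 1.42.0, library size only, RLE scaling, a stricter filter (2 libraries at 5 CPM or more) or none, totals without TERT and short genes, a replicate block and each library left out. Sums over all SNAR genes and over those other than the 3 listed were added after the data were seen. No label says whether libraries with the same replicate number belong together, and the main fit did not pair them. Some listed genes and some sequences are not reported here.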

Additional observations from a re-analysis of the deposited data

How the results depend on the processing

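Over the table, 3282 of 14536 genes passed (1624 higher, 1658 lower), and 1668 higher and 982 lower by library size only, which shifts the median log2 fold change of all genes to 0.23, against 0.04. Apart from the block and left-out libraries, alternatives gave 2650 to 4459 genes, and 11 to 18 of the 63 partner genes, against 13. With the replicate number as a block, 210 genes and 1 partner gene passed. Deviations of same-numbered libraries from their group means correlated at -0.05 and -0.08. With 2 controls, their deviations mirror each other, so these correlations cannot decide whether the libraries are paired. Leaving out one library gave 0 to 8811 genes and 0 to 40 partner genes. The 0 holds without any one knockdown library, where edgeR gave 3774 to 4109 genes an unadjusted p under 0.05, so every call named here is lost there. With control 1 left out 5658 genes and 31 partner genes passed, and with control 2 left out 8811 and 40, with the lone control assumed to vary like the knockdown libraries. On leaving out one library, the median of the 10 genes ran from -1.16 to -2.10, the SNAR sum from -1.49 to -5.77, the housekeeping sum from -0.78 to -1.80, and the ratio from -0.70 to -3.97. In each case the value nearest 0 is that without control 1. Scaling alternatives kept the SNAR sum at -3.41 to -3.67 and the housekeeping sum at -1.07 to -1.33. All SNAR genes summed gave -3.50, and those other than the 3 listed gave -2.51. With pooled counts the ratio was -3.12. The stricter filter drops VTRNA1-1, so it gave no median of the 10. For RN7SK, the RN7SL genes and VTRNA1-1, counts of 8 to 116 per library limit the precision.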

Other observations

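Small nuclear RNAs made by RNA polymerase II, which also lack a poly(A) tail, had negative log2 fold changes in 7 of 8 tested genes, with a median of -1.52. Values were negative in 151 of the 210 tested genes under 350 nucleotides (median -0.91), and in 7046 of all 14536 tested genes. Of the 8 small nuclear RNA genes, RNU4ATAC, an RNA of the minor spliceosome, fell (edgeR). RNU4ATAC was at 2456, 2604 and 1663 CPM in the knockdown, against 5836 and 5260 in the controls (log2 fold change -1.54, SE 0.30, edgeR adjusted p = 0.0221, and -1.31 without control 1). It lies within the span of CLASP1, and with no strand in the counts its reads cannot be told apart from those of that gene's primary transcript. It was at nearly equal levels in both controls, in which the 3 SNAR genes differed by 16.0 times. The ratio of summed SNAR to RNU4ATAC reads was 0.594, 0.704 and 0.669 in the knockdown libraries, against 10.5 in control 1 and 0.727 in control 2. Of the other 7 genes, RNU11 was at -2.003 (edgeR adjusted p = 0.0535), RNU4-1 at -1.50 (0.0547) and RNU4-2 at -1.06 (0.0676), and the variant U1 gene RNVU1-20 at 1.36 (0.124). The rest were RNU2-2P at -2.50 (edgeR adjusted p = 0.0815), RNU5B-1 at -2.36 (0.124) and RNU5F-1 at -1.24 (0.158). In each of RNU2-2P, RNU5B-1 and RNU5F-1, control 2 lay below the highest knockdown library in CPM. Without RNU4ATAC the small nuclear RNAs summed to 31.9, 33.2 and 21.8 CPM in the knockdown, against 90.4 in control 1 and 36.8 in control 2.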
